A study of Mus musculus with 1505 samples.

Results

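Hcn2, Hcn3, Hcn4 and Pex5l are 4 of the 42381 genes in the exonic count table of a Patch-seq study of mouse primary motor cortex, and all 4 were in that table. They were taken by name and not by their level, and their levels were followed across 10 transcriptomic families and across the 53 transcriptomic types (t-types) with 5 or more cells. In Patch-seq, a single neuron in an acute slice is recorded through a pipette and its RNA is then drawn into the same pipette and sequenced. The cells came from adult male and female mice that were wild-type C57Bl/6 or carried 1 of several Cre drivers with the Ai9 reporter (Viaat, Sst, Vip, Pvalb, Npy, Vipr2, Slc17a8 or Gnb4). The driver marked cells for patching, and unlabelled cells were patched as well. At 25 °C, 1320 cells were analysed here, of which 1228 had a t-type, and at 34 °C a further 185 cells, of which 177 had one.

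The groups were families of t-types named in the study from the same RNA. The excitatory families were extratelencephalic neurons (ET, whose t-types are named L5 PT, 48 cells at 25 °C), intratelencephalic neurons (IT, 253 cells), corticothalamic neurons (CT, 83 cells), layer 6b neurons (L6b, 24 cells) and near-projecting neurons (NP, 5 cells). The inhibitory families were Sst (272 cells) and Pvalb (286 cells), which derive from the medial ganglionic eminence (MGE), and Vip (152 cells), Lamp5 (92 cells) and Sncg (13 cells), which were counted as derived from the caudal one (CGE). Among the Lamp5 cells were 2 of the t-type Lamp5 Lhx6, which is putatively MGE-derived. The 34 °C cells were from other mice (Sst-Cre/Ai9 and Pvalb-Cre/Ai9) and were aimed at layer 5. They were recorded in the presence of the synaptic blockers kynurenic acid and picrotoxin, on 8 days of the same year. The temperature cannot be told apart from any of these, the recording period included. Labels name the recording day but not the animal, so each group counts as 1 sample. Accordingly no p-value is given between groups: levels are a gene's summed reads over all exonic reads of the group, scaled to 1000000 (CPM) and without the spike-in rows, with exact Poisson 95% intervals that cover counting error only, and the spread is that over cells.

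Hyperpolarization-activated, cyclic nucleotide-gated (HCN) channels open when a neuron is hyperpolarized and pass a mixed sodium and potassium current, the h-current, which shapes resting potential, the sag on hyperpolarization and the summation of synaptic inputs. Cyclic AMP binds to their intracellular C-terminal part and eases the opening of some of them. Pex5l, also called TRIP8b, is a relative of the peroxisomal import receptor Pex5; as an auxiliary subunit it binds the C-terminal tail of HCN channels, sets their number at the surface and in dendrites, and counters the effect of cyclic AMP. In cortex the current is known best from the apical dendrites of layer 5 pyramidal neurons.

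Pex5l binds the C-terminal tail of HCN channels, which is why the ends of the 3 coding sequences are shown. Whether Pex5l binds the end that each gene encodes was not tested. Each line gives the last 30 bases of the coding sequence from the GENCODE reference transcripts on mm10, 5′ to 3′ on the coding strand, with the last 3 sense codons in capitals and the stop codon after them.
Hcn2 (chr10:79735511-79735540, + strand): gcgcgctcgcgcctctctTCCAACTTGtga
Hcn3 (chr3:89147599-89147628, − strand): agaggtccccaaatttctGCCAACATGtga
Hcn4 (chr9:58860734-58860763, + strand): gtacgctccaaactgccgTCTAATTTAtga
In capitals, Hcn2 and Hcn4 had the same base at 6 of 9 positions and encoded the same residue at 3 of 3 codons. Hcn3 had the same base as Hcn2 at 7 of 9 positions and encoded the same residue at 1 of 3 codons, and it shared 4 of 9 bases and 1 of 3 residues with Hcn4.

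The gene bodies lie at chr10:79716634-79736108 (+) for Hcn2, chr3:89146074-89160196 (−) for Hcn3, chr9:58823412-58863175 (+) for Hcn4 and chr3:32949408-33143247 (−) for Pex5l. The principal transcripts of Hcn2, Hcn3 and Hcn4 have 3195, 4002 and 6118 bases, with 65.4%, 58.05% and 58.01% G or C. That of Pex5l has 3421 bases with 48.7% G or C, and Pex5l has 12 annotated transcripts, so that its CPM sums over isoforms.

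Exonic reads per typed cell at 25 °C had a median of 1267852 (range 2588 to 18172944), and family medians lay between 1030398 (Vip) and 1784167 (NP). To compare shares of cells with a read, the 1157 typed cells with 200000 or more exonic reads were thinned to that number. Checked against their markers, each family that has a marker list had the highest summed level of that list among the 10 families. Reads of other cells were also present: oligodendrocyte markers (7 genes) summed to 230 CPM in Sncg cells and to 2034 CPM in L6b cells, with 1630 CPM in ET and 741 CPM in IT cells. Microglia markers summed to between 280 CPM (Sncg) and 964 CPM (Vip). Oligodendrocytes are known to express Hcn2 and Pex5l, and the part of such reads in these levels was not tested other than by the values given beside them.

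Over all typed cells at 25 °C, Pex5l was the most abundant member. It had 120348 reads (60.6 CPM) and at least 1 read in 654 of 1228 cells (53.3%). Hcn3 had 58166 reads (29.3 CPM) in 391 cells (31.8%). Hcn2 had 8534 reads (4.29 CPM) in 301 cells (24.5%), and Hcn4 had 4976 reads (2.504 CPM) in 91 cells (7.41%). Hcn2 and Hcn4 were thus close to the limit of detection in most cells. On the scale of CPM per kb of transcript, the order in ET cells was Pex5l (61.97), Hcn3 (2.36), Hcn2 (1.804) and Hcn4 (0.863). Per kb of the union of its exons Pex5l had 23.97, still above the other members.

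Pex5l was highest in ET and IT cells. In ET cells it had 212 CPM (95% interval 209 to 215), with a lowest cell at 0, a median of 253 and a highest cell at 686 CPM. In IT cells it had 128 CPM, with a lowest cell at 0, a median of 88.6 and a highest cell at 1116 CPM. The first quartile of ET cells was 141 CPM, above the median of IT cells.

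The other excitatory families followed at lower levels, beside some inhibitory ones. Pex5l had 53.5 CPM in L6b cells (median 8.55), 52.2 CPM in CT cells (median 2.55) and 9.78 CPM in the 5 NP cells (median 0). In the inhibitory families it had 58.98 CPM in Sncg, 40.7 CPM in Lamp5, 26.8 CPM in Sst, 24.95 CPM in Pvalb and 11.4 CPM in Vip cells, with a median cell at 0 in each. The Sncg level rested on few cells, since 72.1% of its reads came from 1 of 13 cells.

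The order was ET, IT, Sncg, L6b, CT, Lamp5, Sst, Pvalb, Vip, NP, and ET was also first under all 11 alternatives that were run. Those from the 34 °C cells, which are other cells, had 5 families to rank, and the earlier period had 9. The interquartile ranges over cells overlapped for all 9 pairs of neighbours in this order. Of the 45 pairs of families, 12 had interquartile ranges of Pex5l that did not overlap. Of these, 8 were ET against each family other than IT. Such pairs were counted for the members only, so whether 12 of 45 is unusual for a gene at this level was not tested.

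**Figure D1:**
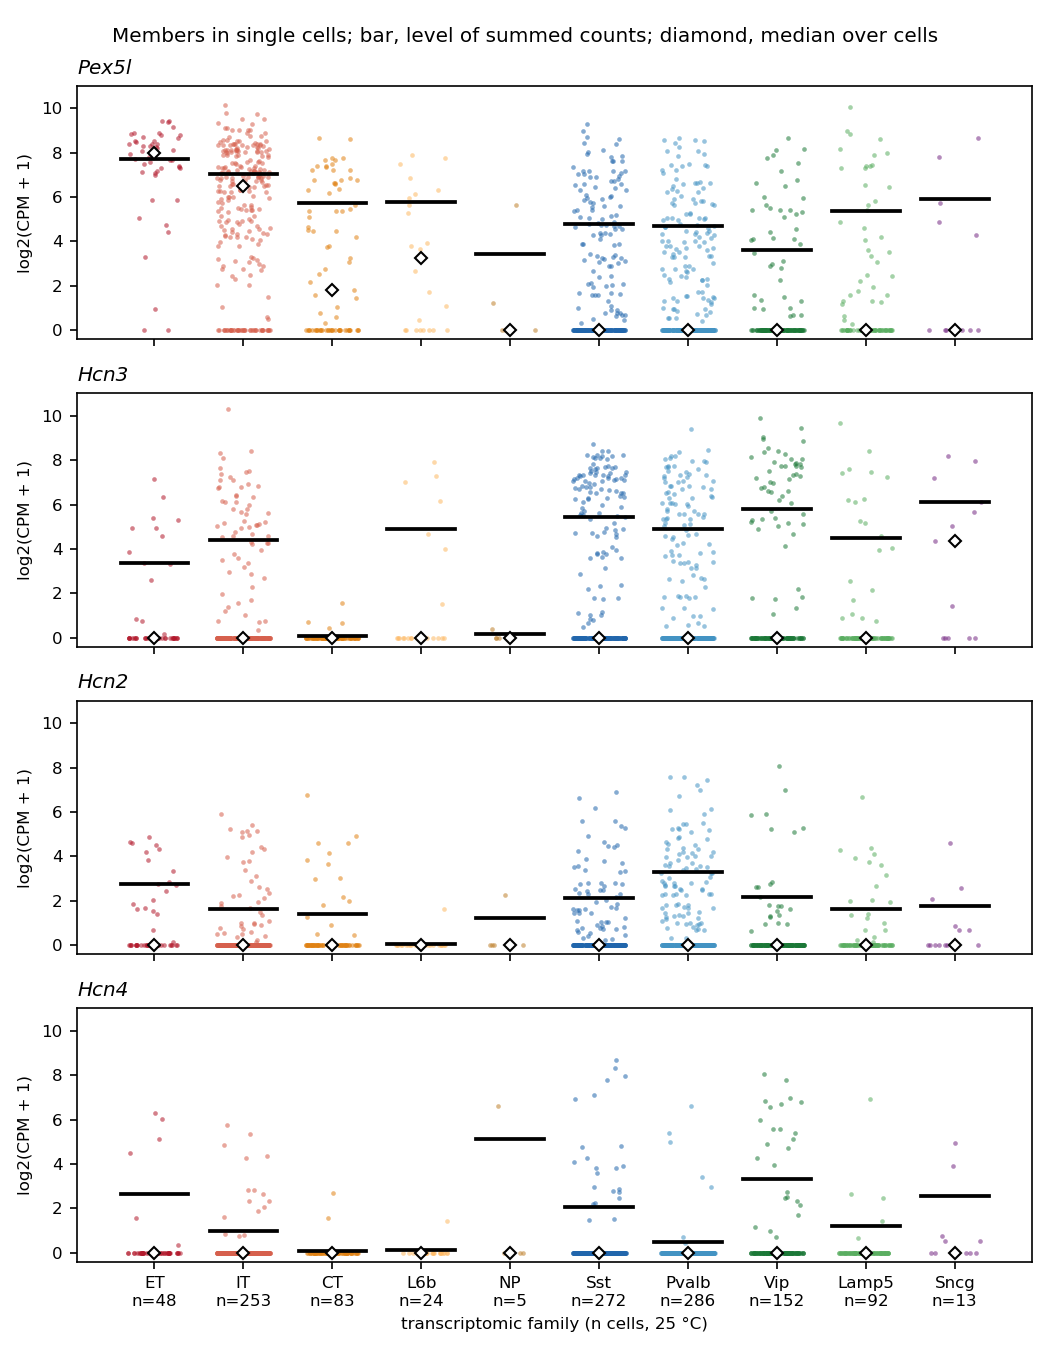
Level of each gene in every typed 25 °C cell, as log2(CPM + 1), by family, 1 panel a gene. Each point is 1 cell, the bar is the level of the summed counts and the diamond the median over cells. The Pex5l diamond stands for 253 CPM in ET and 88.6 CPM in IT cells and lies at 0 in all inhibitory families, whereas for Hcn3 it lies at 0 in every family but Sncg.

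Among the t-types, Pex5l was detected in every cell of L5 PT_1, the largest ET t-type. It had 246 CPM in its 31 cells, with a lowest cell at 0.97, a median of 302 and a highest cell at 686 CPM. In L5 PT_4 it had 80.9 CPM, and the 9 cells had 0, 0, 20.8, 26.1, 32.02, 128, 162, 201 and 247 CPM. The interquartile ranges of these ET t-types (161 to 413 CPM in L5 PT_1, 20.8 to 162 CPM in L5 PT_4) overlapped by about 1 CPM.

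All 14 excitatory t-types with 5 or more cells had at least 10 CPM of Pex5l, between 29.1 CPM (L6 CT Pou3f2) and 410 CPM (L5 IT_2). Of the 39 inhibitory t-types, 24 had at least 10 CPM. The level in L5 IT_2 came mostly from 1 of its 7 cells, which gave 76.5% of the reads, and its median cell had 133 CPM. The other IT t-types ran from 40.03 CPM in L6 IT_2 (25 cells) to 200 CPM in L4/5 IT_1 (22 cells), with 137 CPM in L5 IT_1 (61 cells) and 96.9 CPM in L2/3 IT_3 (86 cells).

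The levels of inhibitory t-types overlapped those of excitatory ones, and 3 inhibitory t-types had over 100 CPM. In Lamp5 Pax6 Pex5l had 338 CPM, and the 5 cells had 55.5, 165, 254, 462 and 1066 CPM. In Lamp5 Egln3_1 it had 199 CPM, with a read in 7 of 9 cells and 60.4% of the reads from 1 of them, and in Sst C1ql3_2 it had 102.5 CPM over 6 cells. Another t-type of the same family, Lamp5 Pdlim5_2, stood near the lower end with 1.34 CPM over 24 cells, of which the highest had 15.7 CPM.

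Other inhibitory t-types were close to empty of Pex5l. There was 1 read in the 16 cells of Vip Chat_1 (0.050 CPM), the bipolar interneurons that also make acetylcholine. There were 21 reads in 3 of the 17 cells of Pvalb Vipr2_2 (0.95 CPM), the chandelier cells, which contact the axon initial segment. In Sst Htr1a, 0 of 6 cells had a read, which allows a share of up to 50% and a level of up to 0.235 CPM. At 34 °C the same t-type had 71.5 CPM, with a read in 3 of 7 cells, so that its zero at 25 °C was not seen again.

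**Figure D2:**
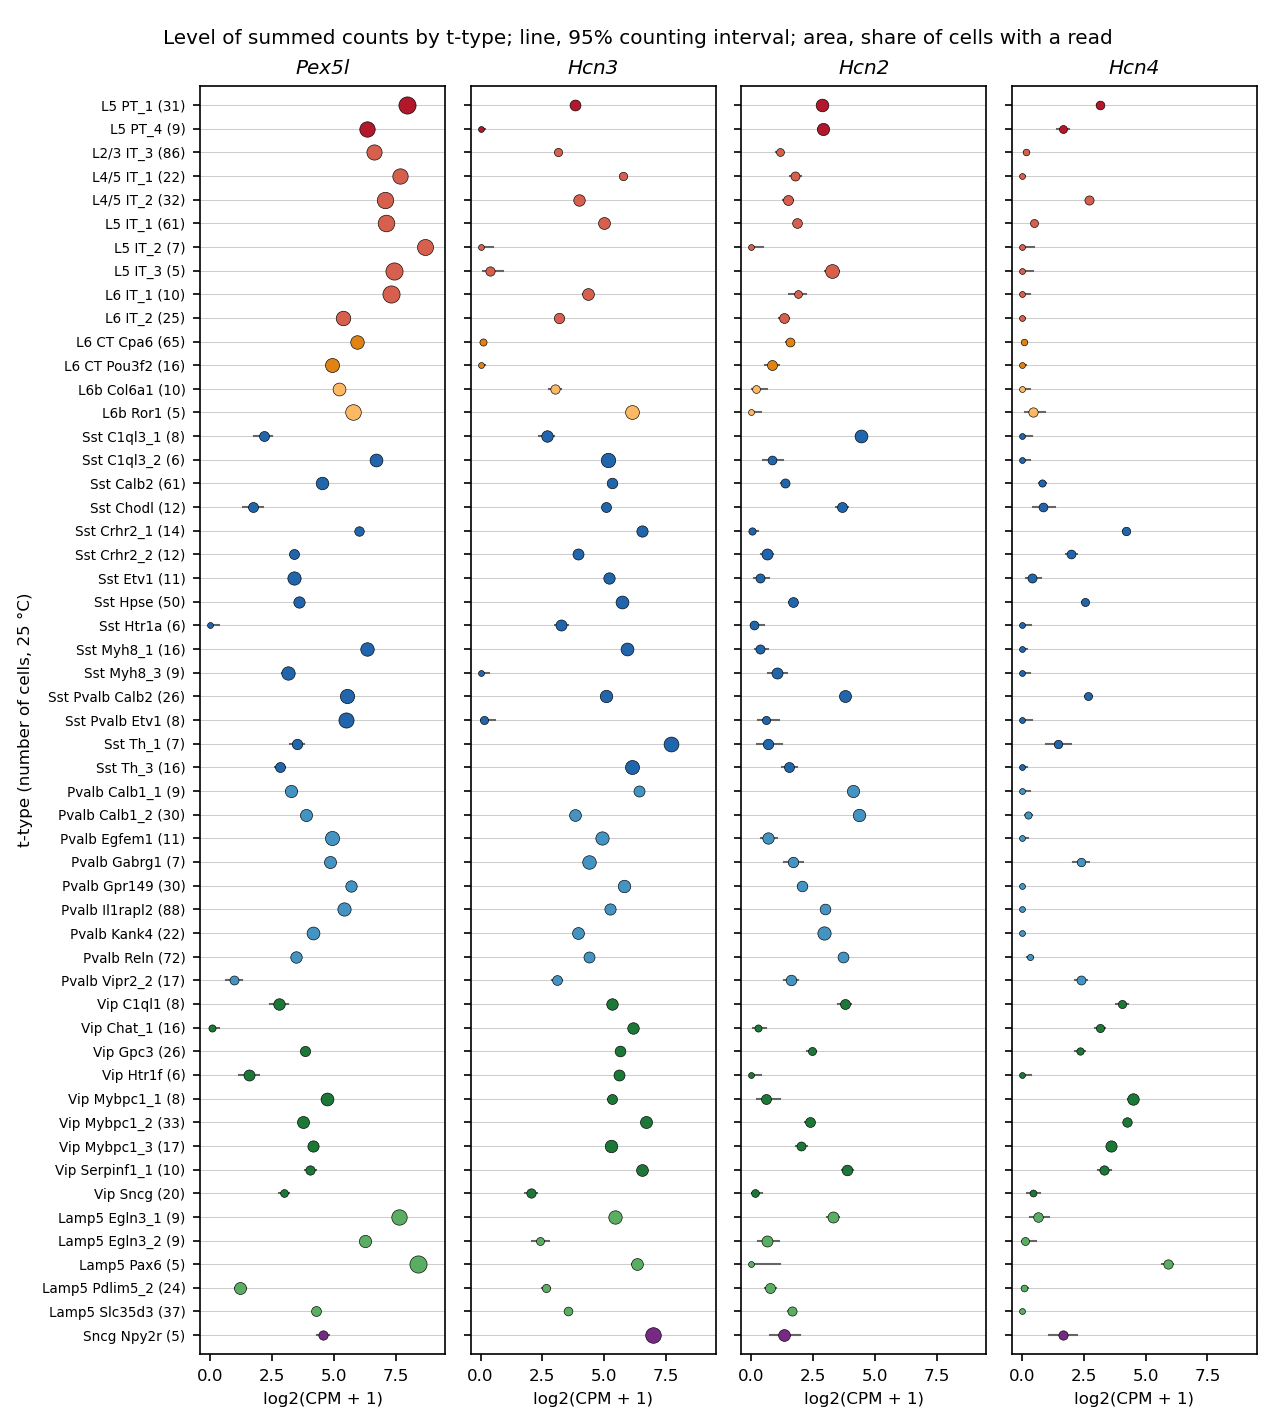
Level of the summed counts of the 4 genes, as log2(CPM + 1), in the 53 t-types with 5 or more cells at 25 °C (number of cells in brackets, colour by family). The line is the exact Poisson 95% interval and the area of a point the share of cells with a read. Pex5l lies between 29.1 and 410 CPM in all 14 excitatory t-types and spreads from 0 to 338 CPM in the inhibitory ones, and Hcn4 is at 0 in 21 t-types.

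Hcn3 was highest in Sncg cells (68.6 CPM, with 38.2% of the reads from 1 of 13 cells), followed by Vip (54.6), Sst (42.7), L6b (29.2), Pvalb (28.6), Lamp5 (21.3), IT (20.5) and ET cells (9.44 CPM). The lowest levels were in the 5 NP cells (0.11 CPM) and in CT cells (0.044 CPM). Within a family Hcn3 was carried by a minority of cells: the median cell was at 0 in 9 families, and in Sncg it had 19.4 CPM. Sncg was first under 7 of 11 alternatives, but those from the 34 °C cells had no Sncg cells to rank. The first quartile was 0 in every family, so that the interquartile ranges overlapped in all 45 pairs.

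The CT level was low across the family. In CT cells 6 reads of Hcn3 were found in 4 of 83 cells, with the highest cell at 1.98 CPM. After thinning, 1.22% of 82 CT cells had a read of Hcn3, against 22.1% of 240 IT cells. In the 45 CT cells with under 1000 CPM of oligodendrocyte markers no read of Hcn3 was found, and in the 38 others it had 0.13 CPM.

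Among t-types, Hcn3 was highest in Sst Th_1, where it had 208 CPM and a read in 5 of 7 cells (25.3, 148, 160, 337 and 338 CPM). In Sncg Npy2r it had 124 CPM, with 73.7% of the reads from 1 of 5 cells. Vip Mybpc1_2 had 101 CPM over 33 cells, of which 14 had a read and the highest had 341 CPM. In 37 of the 53 t-types Hcn3 had at least 10 CPM.

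In 4 t-types no read of Hcn3 was found. These were L5 PT_4 (0 of 9 cells, which allows a share of up to 33.3%), L6 CT Pou3f2 (0 of 16 cells, up to 18.8%), L5 IT_2 (0 of 7 cells, up to 42.9%) and Sst Myh8_3 (0 of 9 cells, up to 33.3%). In the other ET t-type, L5 PT_1, Hcn3 had 12.998 CPM with a read in 10 of 31 cells, and 56.6% of its reads came from 1 cell. Vip Chat_1, with 1 read of Pex5l, had 70.1 CPM of Hcn3 with a read in 6 of 16 cells.

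Hcn2 was low throughout. It had 8.94 CPM in Pvalb, 5.76 in ET, 3.45 in Vip, 3.41 in Sst, 2.42 in Sncg, 2.15 in Lamp5, 2.08 in IT, 1.67 in CT, 1.32 in NP and 0.051 CPM in L6b cells. Pvalb was first under 6 of 11 alternatives. The median cell was at 0 in every family, so that the alternative by medians could rank none of them. The share of thinned cells with a read was 31.8% in ET and 27.1% in Pvalb cells, and between 4.17% (L6b) and 30.8% (Sncg, 13 cells) elsewhere.

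Of the 53 t-types, 8 had at least 10 CPM of Hcn2, and all 8 were inhibitory, as were 39 of the 53. The 3 Pvalb t-types among them were Pvalb Calb1_2 (19.7 CPM, 14 of 30 cells with a read), Pvalb Calb1_1 (16.4 CPM, 4 of 9 cells) and Pvalb Reln (11.9 CPM, 23 of 72 cells). The highest level was in Sst C1ql3_1 (20.6 CPM), where 74.5% of the reads came from 1 of 8 cells. Among Pvalb cells, Hcn2 had 8.26 CPM in the 221 cells with under 1000 CPM of oligodendrocyte markers and 11.3 CPM in the 65 others.

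Hcn4 was the rarest member. It had 9.03 CPM in Vip, 5.28 in ET, 4.85 in Sncg, 3.11 in Sst, 1.28 in Lamp5, 0.95 in IT, 0.40 in Pvalb, 0.10 in L6b and 0.058 CPM in CT cells. The highest level, 33.7 CPM in NP cells, came from 1 of 5 cells. In ET cells 77.2% of the Hcn4 reads came from 1 cell. Hcn4 was thus read from a few cells in each family, and NP was first under 5 of 11 alternatives. Of the others, the median over cells was 0 in every family, and the earlier period had no NP cells.

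The Vip t-types named for Mybpc1, a muscle-type myosin-binding protein gene, held some of the cells with Hcn4. It had 21.4 CPM in Vip Mybpc1_1 (3 of 8 cells with a read, and 89.6% of the reads from 1 of them), 17.98 CPM in Vip Mybpc1_2 (7 of 33 cells) and 11.3 CPM in Vip Mybpc1_3 (6 of 17 cells). Other t-types of like level rested on 1 or 2 cells: Hcn4 had 58.6 CPM in Lamp5 Pax6 (1 of 5 cells), 17.5 CPM in Sst Crhr2_1 (2 of 14 cells) and 15.6 CPM in Vip C1ql1 (1 of 8 cells). In Pvalb Il1rapl2, the t-type with the most cells, 0 of 88 cells had a read, which allows a share of up to 3.41%. Hcn4 had no read in 21 of the 53 t-types.

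**Figure D3:**
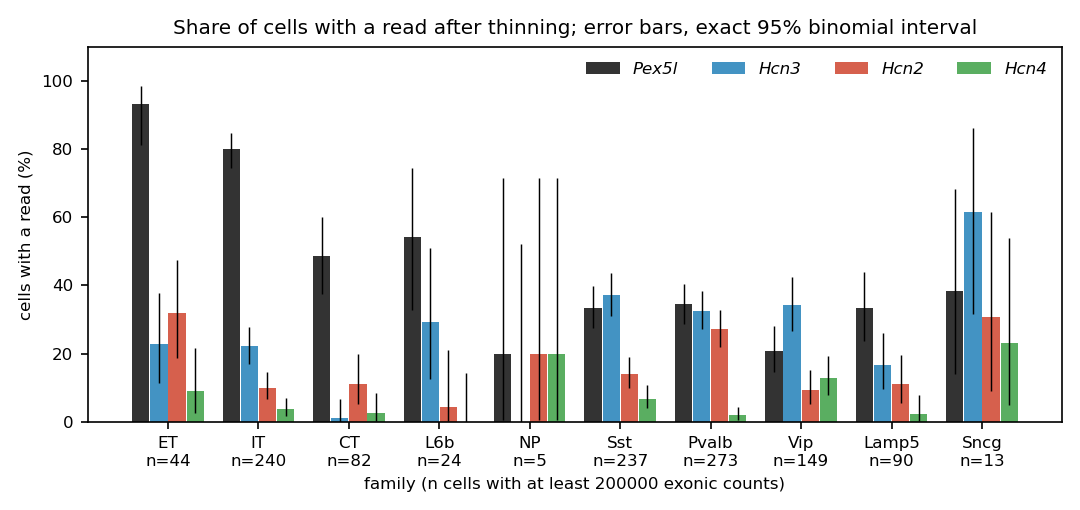
Percentage of cells with at least 1 read of each gene after thinning to 200000 exonic reads, by family, with exact binomial 95% intervals. Pex5l was read in 93.2% of ET and 80% of IT cells and in at most 54.2% of the cells of any other family.

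The first comparison was of ET with IT neurons. The ET cells lie in layer 5, while the IT cells span layers 2/3 to 6, so that the ratio mixes cell type with layer. Of the 4 members, 1 differed by at least 2-fold and reached 10 CPM in 1 of the families, against 20.05% of the 11394 genes that reached 10 CPM in either. This was Hcn3, with 9.44 CPM in ET cells and 20.5 CPM in IT cells (log2 ratio of CPM + 1 of −1.04, counting interval −1.14 to −0.93). The call was marginal: it was lost without the deepest cell of each group (−0.81) and in the earlier recording period (−0.91), and leaving out single recording days gave −1.65 to −0.76. The shares of thinned cells with a read of Hcn3, 22.7% of ET and 22.1% of IT cells, lay within each other's counting intervals. Among IT t-types Hcn3 had 30.5 CPM in L5 IT_1 (61 cells) and 7.81 CPM in L2/3 IT_3 (86 cells), on either side of its level in ET cells.

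Pex5l was higher in ET cells by less than 2-fold in the summed reads (212 CPM in ET, 128 CPM in IT, log2 ratio 0.72). The median cells were farther apart, at 253 CPM in ET and 88.6 CPM in IT cells. The mean over recording days gave a log2 ratio of 1.28, and on the 22 days with both families ET cells were higher on 16. The log2 ratio was 0.60 within the later period, which had 5 ET cells, and 0.80 within the earlier one. Oligodendrocyte markers moved with this comparison (6 of 7 higher by at least 2-fold, 1630 CPM in ET and 741 CPM in IT cells). Among cells with under 1000 CPM of those markers, Pex5l had 208 CPM in 25 ET cells and 122 CPM in 198 IT cells. Among cells with 1000 CPM or more it had 215 CPM in 23 ET cells and 150 CPM in 55 IT cells.

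Hcn2 and Hcn4 did not reach 10 CPM in either family. Hcn2 had 5.76 CPM in ET and 2.08 CPM in IT cells, and was read in 31.8% of thinned ET cells (95% interval 18.6 to 47.6%) and 10% of thinned IT cells (6.51 to 14.5%). Hcn4 had 5.28 CPM in ET and 0.95 CPM in IT cells, mostly from the single ET cell named above. Neither direction held throughout. The log2 ratio of Hcn2 was 1.14 over all cells, but −1.19 in the later recording period (5 ET cells) and −1.32 in cells with under 100 CPM of oligodendrocyte markers (4 ET cells). That of Hcn4 was 1.68 over all cells, but −0.80 in the later period, and leaving out single recording days gave 0.23 to 1.97.

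The second comparison was of excitatory (413 cells) with inhibitory neurons (815 cells). Pex5l and Hcn3 differed by at least 2-fold, in opposite directions, so that 2 of 4 members passed, against 16.4% of 11261 genes. Pex5l had 122 CPM in excitatory and 25.8 CPM in inhibitory cells (4.60-fold after adding 1 CPM to each, log2 ratio 2.202). It was read in 72.7% of thinned excitatory and 31.4% of thinned inhibitory cells, and was higher in excitatory cells on 82 of the 105 days with both classes. Later recordings gave a log2 ratio of 1.98 and earlier ones 2.28.

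Hcn3 had 14.9 CPM in excitatory and 37.4 CPM in inhibitory cells (log2 ratio −1.27), and was read in 17.97% of thinned excitatory and 32.9% of thinned inhibitory cells. Its log2 ratio was −1.60 in the later period and −0.92 in the earlier one, where it did not pass. Among cells with under 100 CPM of oligodendrocyte markers it was −0.30. Oligodendrocyte markers summed to 1105 CPM in excitatory and 648 CPM in inhibitory cells.

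Within the inhibitory class 2 comparisons were made, and neither found a member that differed by at least 2-fold at 10 CPM. Between MGE-derived (558 cells) and CGE-derived cells (257 cells), 0 of 4 passed, against 12.6% of genes. Pex5l had 25.8 CPM in MGE-derived and 25.8 CPM in CGE-derived cells, and Hcn3 had 35.4 CPM in MGE-derived and 42.3 CPM in CGE-derived cells. Between Sst and Pvalb cells, 0 of 4 passed, against 13.1% of genes. Single families within these groups lay farther apart: in the CGE-derived group Pex5l had 58.98 CPM in Sncg, 40.7 CPM in Lamp5 and 11.4 CPM in Vip cells.

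Below 10 CPM, Hcn2 had 3.41 CPM in Sst and 8.94 CPM in Pvalb cells (log2 ratio −1.17), and was read in 13.9% of thinned Sst and 27.1% of thinned Pvalb cells. At the lower temperature Hcn4 ran opposite to the summed reads of Hcn2, with 3.11 CPM in Sst and 0.40 CPM in Pvalb cells. Its log2 ratio of 1.56 rested on the earlier period, since it was 0.14 in the later one. Pex5l also differed by period, with 19.3 CPM in 161 later and 49.5 CPM in 111 earlier Sst cells, so that the log2 ratio of Sst over Pvalb was −0.46 in the later period and 1.11 in the earlier one.

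**Figure D4:**
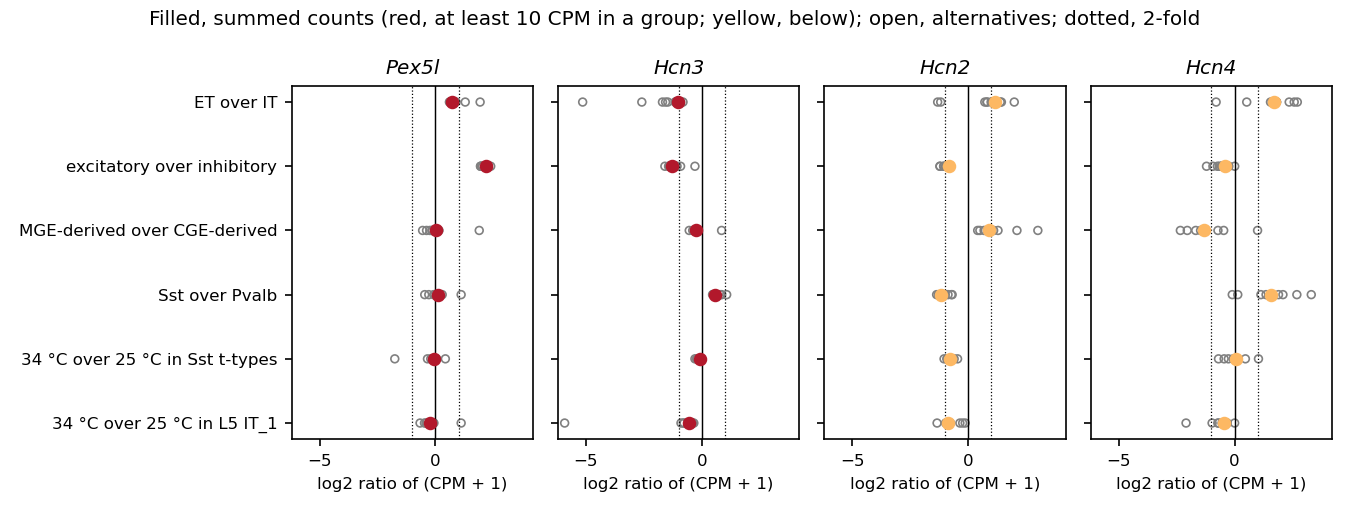
Log2 ratio of CPM + 1 for each gene in the 6 comparisons. Filled points are the summed counts (red where a group reached 10 CPM, yellow below), open points the alternative ways of computing them, and dotted lines mark 2-fold. Only for Pex5l in excitatory over inhibitory cells (2.202) do the filled point and all 12 open points lie beyond 2-fold among the genes that reached 10 CPM.

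At 34 °C, Pex5l had the order ET, IT, Sst, Pvalb that it had at 25 °C, and Hcn3 was again lowest in ET cells among these families. Pex5l had 204 CPM in the 12 ET cells (median 200) and 118 CPM in the 43 IT cells (median 104), a log2 ratio of 0.78, and 30.01 CPM in 110 Sst and 7.72 CPM in 10 Pvalb cells. A read was found in 11 of 12 ET and in 40 of 43 IT cells. Of the Pex5l reads of the Pvalb cells, 96% came from 1 of 10 cells. At 25 °C Sst and Pvalb cells lay close, at 26.8 and 24.95 CPM. Hcn3 had 10.4 CPM in ET, 20.4 in IT, 40.2 in Sst and 41.7 CPM in Pvalb cells. Its ET reads came from 2 of 12 cells, recorded on 1 day, and 60.5% of them from 1 cell. The 12 ET cells came from 2 recording days, and their oligodendrocyte markers summed to 3320 CPM, with 773 CPM in IT cells.

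Intronic reads, which come mostly from nuclear, unspliced RNA, were counted separately in the 34 °C table. Scaled to CPM of intronic reads, Pex5l had 1174 in ET and 821 in IT cells (log2 ratio 0.52), and 279 in Sst cells. Hcn3 had 2.48 in ET and 6.96 in IT cells (log2 ratio −1.19). Hcn4 had 30.1 in ET cells (4 of 12 with a read) and 9.83 in IT cells (8 of 43), where its exonic reads were found in 2 ET cells and 1 IT cell.

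Between temperatures, no member differed by 2-fold. In 98 Sst cells at 34 °C and 199 at 25 °C of the same 9 t-types, 0 of 4 members passed, against 10.4% of genes: Pex5l had 29.2 CPM at 34 °C and 30.4 CPM at 25 °C, and Hcn3 had 39.6 CPM at 34 °C and 41.8 CPM at 25 °C. The shares of thinned Sst cells with Pex5l were 50.6% at 34 °C and 32.9% at 25 °C. Oligodendrocyte markers summed to 314 CPM at 34 °C and 668 CPM at 25 °C, and microglia markers to 185 CPM at 34 °C and 700 CPM at 25 °C. In L5 IT_1 (29 cells at 34 °C, 61 at 25 °C), 0 of 4 passed, against 15.4% of genes. There Pex5l had 116 CPM at 34 °C and 137 CPM at 25 °C, and Hcn3 had 20.7 CPM at 34 °C and 30.5 CPM at 25 °C.

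Single t-types differed in both directions for Pex5l and Hcn3. Over the 12 t-types with 5 or more cells at both temperatures, Pex5l was higher at 34 °C in 7 and lower in 5. Hcn3 was higher in 6 and lower in 6. Hcn2 reached 10 CPM in 2 of these t-types, in both only at 25 °C, so that the filter itself picked a lower level at 34 °C. It had 2.22 CPM at 34 °C and 20.6 CPM at 25 °C in Sst C1ql3_1, and 0.65 CPM at 34 °C (10 cells) and 12.98 CPM at 25 °C (26 cells) in Sst Pvalb Calb2. In L5 PT_1, the ET t-type, Pex5l had 294 CPM at 34 °C (5 cells) and 246 CPM at 25 °C (31 cells). In Sst Myh8_1, Pex5l had 19.8 CPM at 34 °C (18 cells) and 79.2 CPM at 25 °C (16 cells), while Hcn4 had 22.2 CPM at 34 °C (4 of 18 cells with a read) and 0 of 16 cells with a read at 25 °C.

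**Figure D5:**
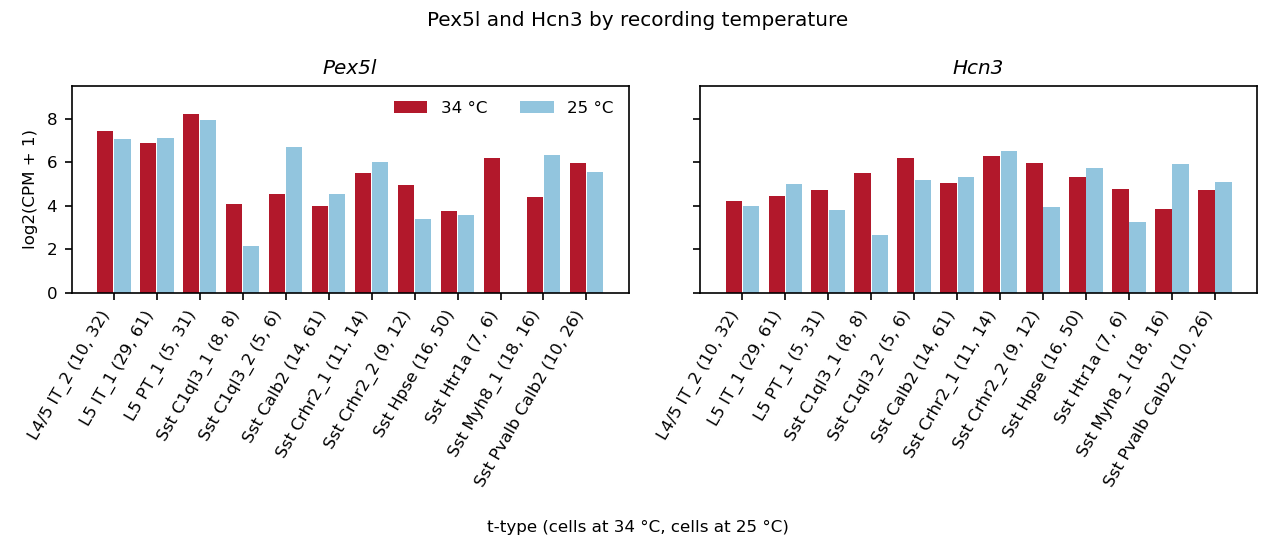
Level of the summed counts of Pex5l and Hcn3, as log2(CPM + 1), at 34 °C and 25 °C in the 12 t-types with 5 or more cells at both (cells at 34 °C and at 25 °C in brackets). The 34 °C bar is the higher in 7 t-types and the lower in 5 for Pex5l, and the higher in 6 and the lower in 6 for Hcn3.

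Detection of an HCN channel gene and of Pex5l in the same cell was then counted over the 1157 thinned cells. At least 1 of Hcn2, Hcn3 and Hcn4 was read in 477 cells (41.2%), 2 of them in 84 cells and all 3 in 3 cells. An HCN read here means a read of any of these 3 genes. The HCN gene not reported here was not counted, so cells without an HCN read may still express it. Pex5l was read in 49.7% of the cells with an HCN read and in 42.5% of those without. None of the 4 genes was read in 391 cells (33.8%). By family, Pex5l was read in 92% of 25 ET cells with an HCN read and in 94.7% of 19 without. In Lamp5 it was read in 57.7% of 26 cells with and 23.4% of 64 without, and in Pvalb in 42.6% of 136 cells with and 26.3% of 137 without. Cells of a family differ in t-type and in quality, and these shares are a description.

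Levels of the members across the 53 t-types were mostly unrelated. Between Hcn3 and Hcn4, Pearson's r on log2(CPM + 1) was 0.40 and Spearman's rank correlation 0.40, and the other 5 pairs had r between −0.13 and 0.07. The points share recording days, depth and the authors' assignment from the same RNA.

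The genes whose pattern over the 53 t-types was most like that of Pex5l, among 17921 genes, were led by 2 transcripts that overlap it. 4930419G24Rik (r = 0.75) and Gm37459 (r = 0.69) are annotated as antisense genes. Their spans overlap 63831 and 33894 bases of the Pex5l gene, introns included, on the other strand. The libraries keep no strand, so that their reads and those of Pex5l cannot be told apart wherever their exons overlap. How many bases their exons share was not counted. Gm37459 had 51.6 CPM in ET and 19.2 CPM in IT cells. Next came Arhgap10 (r = 0.67), Gm49678 (r = 0.67) and Nrn1 (r = 0.63), which encodes neuritin. Over the 34 t-types with 10 or more cells, 4930419G24Rik and Arhgap10 were again among the 5 closest.

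For the channels the likeness was weaker and less stable. Hcn4 was closest to Wnt7a (r = 0.59), a secreted Wnt ligand that was again among the 5 closest with 10 or more cells, followed by Vav2, Tbx2, Sobp and Col6a3 (r = 0.57 to 0.55). Hcn3 was closest to Guf1, Vezt, Npc1, Clcn5 and Gm12166 (r = 0.63 to 0.57) and Hcn2 to Tram2, Rarb, Bora, Pcyt1a and Rel (r = 0.59 to 0.53). None of these 10 was among the 5 closest with 10 or more cells. The Hcn3 gene shares 711 bases with Pklr on the other strand, but Pklr had 588 reads in all, against 58166 for Hcn3.

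Genes around the channels were read from 4 lists. Of 12 genes for other HCN partners (scaffolds, trafficking and ubiquitin ligase proteins), 9 reached 10 CPM in ET or IT cells. There 1 was higher in ET cells (Flna, 159 CPM in ET and 71.8 CPM in IT cells, the actin crosslinker filamin A) and 3 were lower (Vapb, Apba2 and Grasp), so that 4 of 9 differed, against 20.05% of all genes. Their median log2 ratio was 0.09, against −0.05 over all genes tested. Between excitatory and inhibitory cells 2 of 9 were higher, Nedd4l (256 CPM in excitatory and 117 CPM in inhibitory cells), a ubiquitin ligase, and Grasp, a scaffold, and none was lower, against 16.4% of all genes. Between Sst and Pvalb cells 0 of 8 differed, against 13.1% of all genes. Between MGE-derived and CGE-derived cells 1 of 8 was higher and none was lower, against 12.6% of all genes.

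The next lists were of the enzymes that make and break down cyclic AMP, the ligand of the channels. Of 11 phosphodiesterase genes tested, 3 were higher in excitatory cells (Pde1a, Pde4d and Pde7b) and 1 was lower (Pde1c), so that 4 of 11 differed, against 16.4% of all genes, with a median log2 ratio of 0.53, against −0.06 over all genes. Of 10 phosphodiesterase genes tested between ET and IT cells, 1 was higher in ET cells and 2 were lower, against 20.05% of all genes. Pde4d had 308 CPM in ET and 117 CPM in IT cells, while Pde1b had 5.40 CPM in ET and 59.6 CPM in IT cells. Between Sst and Pvalb cells, Pde1a had 195 CPM in Sst and 1.55 CPM in Pvalb cells. Of 8 adenylyl cyclase genes, 1 was higher in excitatory cells (Adcy9) and 1 lower in ET cells (Adcy7), both shares being under those of all genes. Between Sst and Pvalb cells 2 of 8 cyclases and 2 of 10 phosphodiesterases were higher in Sst cells, against 13.1% of all genes. Adcy2 had 143 CPM in Sst and 2.38 CPM in Pvalb cells, and Adcy7 had 33.5 CPM in Sst and 7.83 CPM in Pvalb cells. Between MGE-derived and CGE-derived cells 1 of 8 cyclases was higher and none was lower. Of 11 phosphodiesterases tested there, 1 was higher and 2 were lower, against 12.6% of all genes.

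The last list was of the peroxisomal relatives of Pex5l. Of the 10 genes of Pex5 and the import machinery, 0 differed by 2-fold between excitatory and inhibitory cells (median log2 ratio −0.12, against −0.06). Over all genes 16.4% did. Between ET and IT cells 1 of 10 was lower, against 20.05% of all genes. This was Pex7, with 16.4 CPM in ET and 39.8 CPM in IT cells. Between Sst and Pvalb cells 1 of 9 was lower in Sst cells, against 13.1% of all genes. This was Pex5 itself, the receptor for peroxisomal matrix proteins, with 63.01 CPM in Sst and 147 CPM in Pvalb cells. Between MGE-derived and CGE-derived cells 0 of 10 differed, against 12.6% of all genes.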

How the data were processed

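Counts were taken as the authors deposited them: whole-number reads per gene, exonic in the 25 °C table and exonic and intronic in the 34 °C tables, from Smart-seq2 libraries without strand or molecular identifiers, so that the counts are reads and not molecules. The submitters' processing notes name STAR 2.5.4b, bcl2fastq 2.20, zUMIs and mm10. The authors assigned t-types from the same RNA. Not used were 9 columns of the 25 °C table that matched no sample. The 85 spike-in rows (4.69% of reads) were left out of library totals. The 25 °C intronic table was not used.

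Summed CPM, exact Poisson and binomial 95% intervals (counting error only), and shares of cells after thinning to 200000 reads (seed 1) were computed in Python 3.11.15 with numpy 2.4.6, pandas 2.3.3 and scipy 1.17.1, and drawn with matplotlib 3.10.9. A group at 0 was given a limit of 3 counts. As no animal is named, groups have no replicates and no test was run. A gene was called different where the ratio of CPM + 1 was at least 2-fold and the higher group had at least 10 CPM. Recording days were split into the last year of the 25 °C recordings (later, 737 typed cells) and those before it (earlier, 491 cells).

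The genes named are the 4 members, the members of 4 gene lists (HCN partners, adenylyl cyclases, cyclic AMP phosphodiesterases, Pex5 and the peroxisomal import machinery) that passed the call, and for each member the 5 genes with the highest Pearson's r across t-types. Genes overlapping a member, t-types at the ends of each order and other genes' values were named after their values were seen. Members and lists were chosen with earlier results of these data known. Of the list of HCN genes, 1 is not reported here. Positions and sequences are from a GENCODE annotation and its transcripts on mm10, which may not be the release the authors counted with. Alternatives tried were means over cells or days, deeper cells, recording period, scaling, pseudocount, filter, and cells left out. Only the alternatives that limit oligodendrocyte markers or leave out the cell with the most reads were chosen after seeing the data.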

Additional observations from a re-analysis of the deposited data

How the results depend on the processing

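No paired test was run, since the labels name no animal and replicate numbers only name cells. Groups recorded on the same days were compared by counting days. Hcn3 was lower in ET than in IT cells on 15 of 22 shared days, higher on 4 and equal on 3. It was lower in excitatory than in inhibitory cells on 56 of 105 shared days, higher on 24 and equal on 25. The intronic alternative at 25 °C was not run. Of the 4 members, 1 differed by 2-fold between ET and IT cells; the number was 2 with the mean over recording days, 0 with cells of at least 500000 counts, 0 in the earlier period, 3 with no filter on low values, 0 without the deepest cells, 3 in cells with under 100 CPM of oligodendrocyte markers (4 ET cells) and 2 in those with under 1000 CPM, and leaving out single recording days gave 0 to 1. Between excitatory and inhibitory cells it was 2, but 1 in the earlier period and 1 under 100 CPM of those markers. For MGE-derived over CGE-derived cells it was 0, but 1 in the earlier period (Pex5l, log2 ratio 1.89) and 1 with no filter. For Sst over Pvalb it was 0, but 2 in the earlier period, 2 with no filter and 1 under 100 CPM of markers. For 34 °C over 25 °C it was 0, but under 100 CPM of markers it was 1 in Sst t-types and 2 in L5 IT_1. The other alternatives kept each count. Why these counts moved was not tested, save that without the filter more genes can pass. The log2 ratio of Pex5l in excitatory over inhibitory cells lay between 1.94 and 2.38 and passed under all 12 alternatives. That of Pex5l in ET over IT cells lay between 0.60 and 1.93 and passed under 2 of 12, and that of Hcn3 lay between −5.14 and −0.81 and passed under 9 of 12. For Hcn2 and Hcn4, depth limits what a single cell shows.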

Other observations

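At 25 °C, 92 cells had no t-type, with a median of 236502 exonic reads, and they entered no comparison. Pex5l was read in 11 of them (range 0 to 2817 CPM, median 0), Hcn2 in 12 (0 to 20.6 CPM, median 0), Hcn3 in 1 (0 to 2341 CPM, median 0) and Hcn4 in none. In these cells microglia markers summed to 8691 CPM and oligodendrocyte markers to 5156 CPM.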
